A study of Mus musculus with 9 samples.

Results

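This report sets chronic stimulation under MEK inhibition against acute stimulation in mouse CD8+ T cells, the cytotoxic T lymphocytes, at the level of newly made RNA. It uses the 6 libraries that the labels name as acute (3) and as chronic with MEK inhibition (3), of 9 in all. The other 3, chronic stimulation without the inhibitor, serve to separate what chronic stimulation already showed from what appeared only with the inhibitor. MEK is the kinase that activates ERK, and in T cells this cascade lies downstream of the antigen receptor. The labels name no strain, genotype, animal age, inhibitor, dose, duration or manner of stimulation, and all 3 groups are described alike as CD8 T cells. They also do not say whether the libraries of a group came from separate cultures or animals, so p-values measure the spread between these libraries, which may be technical.

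Per the labels' protocols, living cells were given 0.2 mM 5-ethynyl uridine, a base analogue that enters RNA as it is made, for 30 minutes, and the labelled RNA was captured and sequenced. The deposited values are a scaled signal per transcript in the gene body and in a pause region, the stretch near the transcription start where RNA polymerase II can halt before elongation. A scaled signal below is that value after scaling the libraries to each other, log2 fold changes are on the log2(scaled signal + 5) scale, and a gene is called when the limma p-value, adjusted by Benjamini and Hochberg over all genes tested, is under 0.05. Signal is not divided by length, so levels are compared between groups for 1 gene and not between genes. A lower signal in a bulk sample can come from fewer cells that make the RNA or from less RNA made per cell, which cannot be told apart.

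When T cells are stimulated for long, they can enter a state called exhaustion, marked by inhibitory receptors such as PD-1 and LAG-3 and by loss of genes of resting and memory cells. ERK induces its own brakes, among them the phosphatase DUSP6 and the SPRED and Sprouty adaptors, together with immediate early transcription factors such as EGR1 and FOS. Sterol synthesis, controlled by the SREBP transcription factors, and DNA replication, controlled by E2F factors, are raised in T cells that grow and divide.

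The 10 markers of T cells and CD8+ T cells were measured in every library, with a summed scaled signal of 37990 to 46910 in acute and 34210 to 38830 in MEK-inhibited libraries. In the same 6 libraries, markers of NK cells, neutrophils and erythroid cells summed to at most 80.73 per list, those of B cells to 280.5 to 934.9, of macrophages to 166 to 342 and of dendritic cells to 178.1 to 343.8, and Elane, a neutrophil gene, was at 0 throughout. The list of fibroblasts and endothelium summed to 5185 to 7664, nearly all of it from Pecam1, which was not called (-0.25, limma adjusted p = 0.111). Of the T cell list, Cd8a (-0.52), Lck (-0.40) and Cd5 (-0.39) were called lower (adjusted p = 0.00823, 0.0102 and 0.0357), as was the B cell marker Cd79a (-1.25, adjusted p = 0.0222). The calls of Cd5, Cd79a and Lck were lost on leaving out single libraries, acute replicate 2 among them for each, and that of Cd8a was not. Cd4 fell by 1.92 on the log2 scale against acute, and Zbtb7b, the factor that directs CD4 lineage choice, rose by 1.14 (limma adjusted p = 9.5e-05 and 1.08e-05). The part of other cells in the results was not tested. A locus resembling ribosomal RNA, dropped before scaling, held 20.7% ± 1.63 (SD, n = 3) of the deposited gene-body signal in acute and 31.6% ± 3.92 in MEK-inhibited libraries. That difference of 10.9 percentage points had a two-sided exact permutation p of 0.1, the smallest possible with 3 against 3, and 0.15 after adjustment over 3 library-level values. Acute replicate 2 and MEK-inhibited replicate 1 had signal in 26002 and 25490 genes, fewer than the other libraries of their groups (26228 to 30281). Depth in reads is unknown.

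The targets of the pathway check the labels. Dusp6 (chromosome 10, 99263231 to 99267488, GRCm38) had a scaled gene-body signal of 2183, 2617 and 2750 in acute, 2394, 2321 and 2545 in chronic, and 212, 199 and 191 in MEK-inhibited libraries. Every MEK-inhibited library lay below every other library. Against acute the log2 fold change was -3.61 ± 0.14 (SE; limma adjusted p = 2.43e-12), against chronic -3.56, and between chronic and acute it was -0.05 (adjusted p = 0.809). Egr1 was at 428, 581 and 477 in acute, 256, 316 and 256 in chronic, and 43.5, 29.2 and 24.8 in MEK-inhibited libraries. This early growth response factor was thus already lower in chronic libraries, by -0.83, and reached -3.76 ± 0.30 against acute (adjusted p = 2.12e-08).

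Of 15938 genes tested in the gene body, 3991 (25.0%) were called between MEK-inhibited and acute libraries, 2068 higher (13.0%) and 1923 lower (12.1%), while 1323 (8.30%) moved beyond a log2 value of 1, 818 higher (5.13%) and 505 lower (3.17%). The balance of directions depends on the scaling: 51.8% of the calls were higher here, against 33.2% with library totals and 18.3% on the deposited scale, where the median gene stood at -0.16 and -0.33 against acute, shifts of -0.14 and -0.31 from the scaling used here. Higher and lower below thus refer to the bulk of genes, not to the amount of RNA made per cell. The balance also turned to more lower than higher genes without MEK-inhibited replicate 1, at 1575 and 1682. Chronic libraries without the inhibitor, against the same acute libraries, gave 5283 calls (33.1%), higher in 18.0% and lower in 15.1% of genes. MEK-inhibited against chronic libraries gave 2632 (16.5%), higher in 8.34% and lower in 8.17%.

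The called genes were sorted by these 3 comparisons, which share libraries, so the counts describe and are not tested. A total of 2687 genes stayed different, meaning that they were called against acute in the same direction with and without the inhibitor, 1469 higher (9.22%) and 1218 lower (7.64%). Of these, 1116 higher and 865 lower genes were not called between MEK-inhibited and chronic libraries, 220 and 293 moved toward acute, and 133 and 60 moved further away. New with the inhibitor were 567 genes, called in the same direction against both acute and chronic, 251 higher (1.57%) and 316 lower (1.98%). They comprise 216 higher and 234 lower genes with no call between chronic and acute, and 35 higher and 82 lower ones that chronic stimulation had moved the opposite way. The remaining 348 higher and 389 lower genes were called against acute only, so they cannot be placed as kept or new. In the other direction, 1061 genes called in chronic libraries were called back against chronic and had no call against acute.

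**Figure D1:**
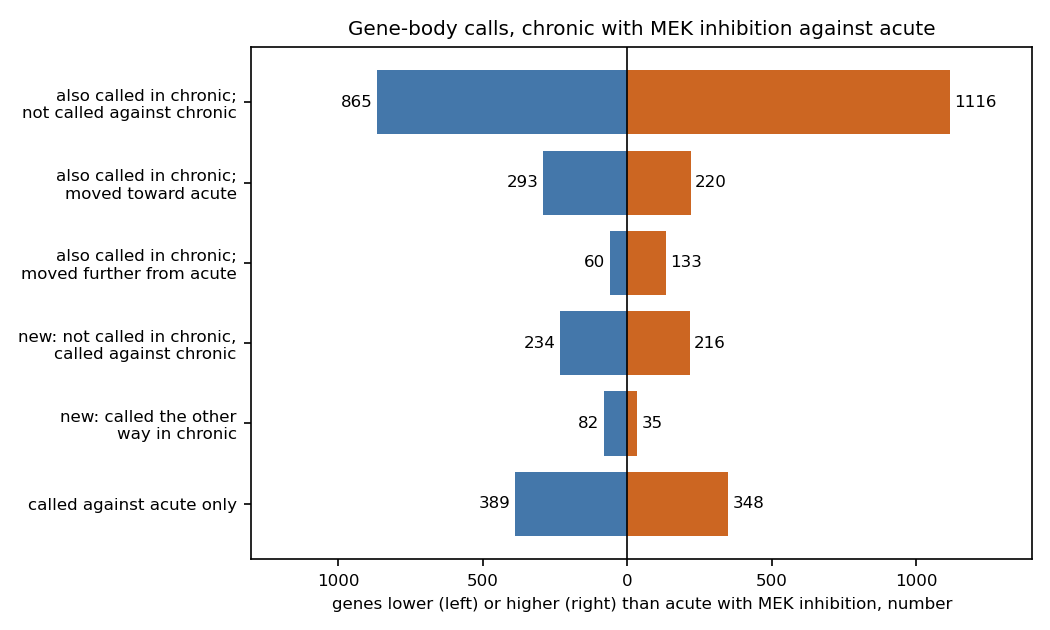
Number of genes called higher (right) or lower (left) in gene-body signal in chronic MEK-inhibited against acute libraries, by their calls in the other comparisons. The longest bars, 1116 higher and 865 lower, are genes also called in chronic libraries and not called between MEK-inhibited and chronic ones.

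Some inhibitory receptors of exhausted cells were among the genes that stayed. Pdcd1, which encodes PD-1 (chromosome 1, 94038305 to 94052553), was at 349, 382 and 330 in acute, 1828, 2366 and 2231 in chronic, and 2388, 2400 and 2383 in MEK-inhibited libraries. The acute libraries overlapped neither other group. Its log2 fold change against acute was 2.74 ± 0.13 with the inhibitor (limma adjusted p = 4.89e-11) and 2.58 without it, and 0.17 between those groups (adjusted p = 0.478). Lag3 (chromosome 6, 124904361 to 124911705) was at 219, 206 and 175 in acute and at 1224, 753 and 975 in MEK-inhibited libraries, a rise of 2.25 ± 0.20 against 2.23 without the inhibitor. Havcr2, which encodes TIM-3, kept a smaller part of its change. It was at 259, 107 and 204 in acute, at 4678, 4883 and 5152 in chronic, and at 508, 449 and 440 in MEK-inhibited libraries, so its log2 rise was 1.36 with and 4.74 without the inhibitor. Of 12 inhibitory receptor genes tested, 3 rose and 4 fell against acute (58.3% called, beside 25.0% of all genes). Their median was -0.02, equal to the -0.02 of all genes tested. In chronic libraries 7 of the 12 were higher and 5 lower than acute, beside 18.0% and 15.1% of all genes, with a median of 0.74. With the inhibitor 4 were called back against chronic and had no call against acute, which held for 1061 of all 15938 genes tested.

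The genes of largest change that stayed, with no call against chronic, had varied roles. Cyp11a1, which starts steroid hormone synthesis from cholesterol (chromosome 9, 58014671 to 58027023), was at 157, 89.5 and 145 in acute, 2959, 2812 and 2163 in chronic, and 1763, 1930 and 1762 in MEK-inhibited libraries. Its rise of 3.79 ± 0.19 compares with 4.31 in chronic libraries. Serpine2, a secreted protease inhibitor (chromosome 1, 79794197 to 79858696), went from 254, 223 and 236 to 2368, 2044 and 2355, a rise of 3.22 ± 0.14 against 3.08. For both genes no acute library reached the other groups. Cox6b2 (4.49 with and 2.91 without the inhibitor), Dcxr (3.38 and 1.97), the transporter gene Slc4a11 (3.36 and 2.88) and Ier5l (2.90 and 3.17) complete the 6 largest rises. For Cox6b2 and Dcxr every MEK-inhibited library lay above every chronic one (1.57 and 1.41, limma adjusted p = 0.0633 and 0.0962). The missing call against chronic thus does not mean an equal level. Cox6b2 and Dcxr rested on acute signals of at most 14.7, and Ier5l on acute signals of 4.46, 78.1 and 12.1, with 2.26 without acute replicate 1 and 3.81 without acute replicate 2.

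Among the falls that stayed, Setbp1, which encodes a SET-binding protein (chromosome 18, 78750380 to 79109391), was at 8474, 9028 and 7875 in acute, 672, 555 and 556 in chronic, and 795, 832 and 639 in MEK-inhibited libraries. The fall of 3.48 on the log2 scale (SE 0.13, limma adjusted p = 2.43e-12) compares with -3.82 without the inhibitor. Gpr83, a G protein-coupled receptor gene (chromosome 9, 14860210 to 14870789), was at 340, 429 and 406 in acute and at 44.3, 24.4 and 43.5 in MEK-inhibited libraries. The groups did not overlap, and its log2 fold changes were -3.26 with and -3.82 without the inhibitor. Nipal1 (-3.69 with and -3.92 without the inhibitor), Fos (-3.69 and -3.27), Tdrp (-3.31 and -1.96) and Ifi213 (-3.23 and -4.96) were the others. Gpr83, Fos, Tdrp and Ifi213 passed the signal filter only through the acute libraries, where they are high, so a fall was set by their entry and they were not tested without any one acute library. Fos, an AP-1 subunit, was at 234, 143 and 220 in acute, 19.3, 17.0 and 11.5 in chronic, and 4.03, 26.0 and 8.28 in MEK-inhibited libraries, so this ERK target was low under chronic stimulation with or without the inhibitor.

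Genes that moved toward acute yet stayed apart from it carried some of the largest changes of chronic stimulation. Hspa1b, an inducible HSP70 chaperone (chromosome 17, 34956436 to 34959238), was at 35.0, 42.4 and 49.2 in acute, 1809, 2944 and 3167 in chronic, and 413, 617 and 536 in MEK-inhibited libraries. All 3 groups were separate, with log2 fold changes against acute of 3.47 with and 5.78 without the inhibitor. Hspa1b has a near-identical copy, Hspa1a (3.04 and 5.48), and the split of reads between them is uncertain. Ccdc184 (4.99 against 6.62) and Marcks (2.87 against 4.24), which encodes a membrane-bound kinase substrate, were also called lower with than without the inhibitor. Ccdc184 was at 0, 2.69 and 8.09 in acute, so its fold depends on the pseudocount, at 6.69 with 0.5 and 3.52 with 20. Igfbp4, which encodes a binder of insulin-like growth factors (chromosome 11, 99041244 to 99054392), was at 7892, 9623 and 7688 in acute, 227, 188 and 183 in chronic, and 654, 596 and 645 in MEK-inhibited libraries. Its log2 fold changes were -3.72 with the inhibitor and -5.36 without. Slc14a1, a urea transporter gene, had values of -3.21 and -5.32.

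Ifng and Prf1 moved toward acute and stayed above it, while their lists were mixed. Ifng, the gene of interferon gamma (chromosome 10, 118441046 to 118445892), was at 132, 114 and 167 in acute, 1483, 1867 and 2190 in chronic, and 680, 730 and 881 in MEK-inhibited libraries. Its rise was 2.44 ± 0.20 with the inhibitor (limma adjusted p = 3.12e-08) against 3.70 without, in groups that did not overlap. Its row overlaps that of Gm49751 on the same strand, and whether counting used strand is not stated in the sources used here. Prf1, which encodes the pore-forming perforin, was at 109, 76.0 and 89.7 in acute and at 286, 333 and 355 in MEK-inhibited libraries, a rise of 1.78 against 4.53 without the inhibitor. Of 18 cytokine genes tested, 7 rose and 6 fell against acute, a share of 72.2% called beside 25.0% of all genes. Ccl3, Ccl4 and Penk of this list passed the filter only through the chronic libraries. Without any one chronic library 15 were tested, with 6 rises and 6 falls, and without acute replicate 3 there were 4 falls. Of 13 cytotoxic effector genes 3 rose, 1 fell and 9 were not called, a share of 30.8% called. The fall was that of Gzmk, a granzyme gene that passed the filter only through the acute libraries, and it was lost without the first or the third MEK-inhibited library and with the replicate block. The cytotoxic list gave 5 rises without chronic replicate 1. Among cytokines, Il10 stood at 1123, 806 and 1142 in acute, 12025, 14450 and 17623 in chronic, and 718, 634 and 793 in MEK-inhibited libraries. This suppressive cytokine was raised by 3.84 in chronic libraries and was -0.50 against acute with the inhibitor (adjusted p = 0.0224), a call lost on leaving out the first or the third acute library, or the first or the second MEK-inhibited one, when adjusted p was 0.0506 to 0.123. The Il10 call was also lost without a filter and with neither trend nor robust moderation.

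**Figure D2:**
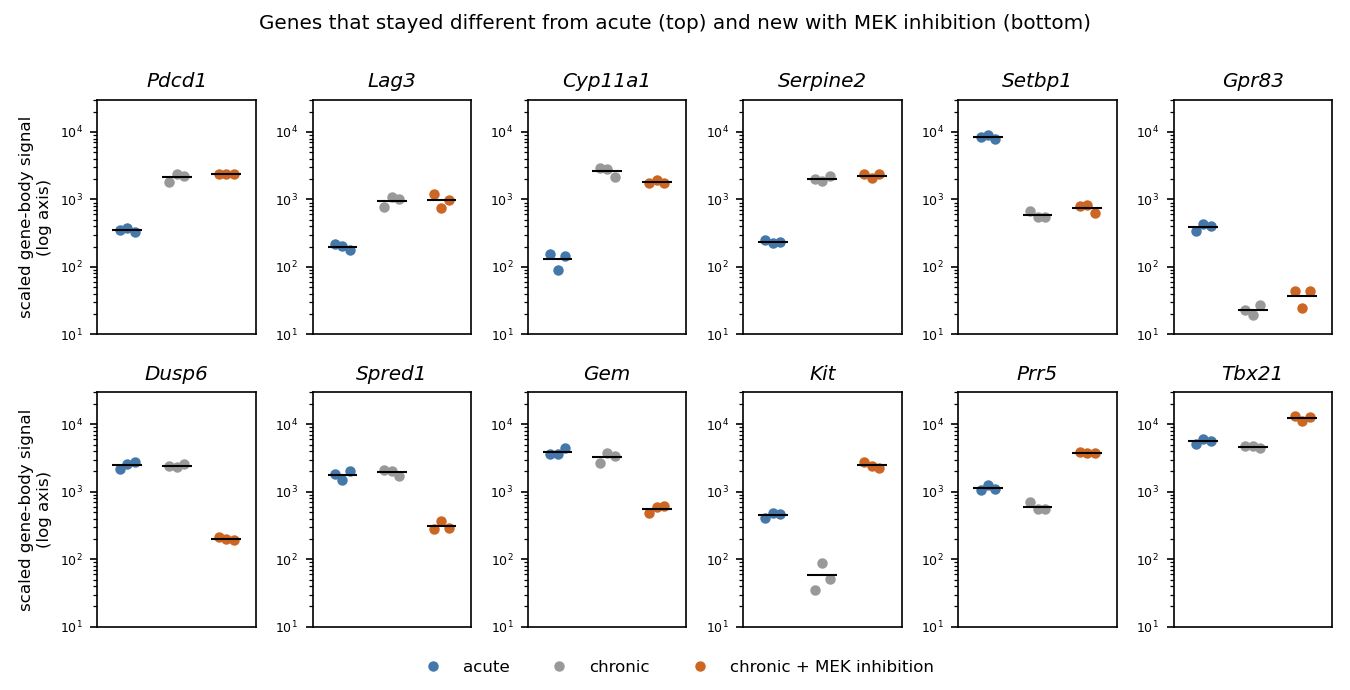
Scaled gene-body signal per library (points; log axis, the same in every panel) with group means (lines) in acute, chronic and chronic MEK-inhibited libraries. In the top row MEK-inhibited libraries lie near the chronic ones, as for Pdcd1, and in the bottom row they stand apart from both other groups, as for Dusp6 and Kit.

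Sterol synthesis genes stayed raised at a lower level. Of 23 genes of sterol synthesis and uptake, 22 rose and none fell against acute, with a median log2 fold change of 1.23 beside -0.02 over all genes. The share called was 95.7%, beside 25.0% of all genes. Scap, the escort of SREBP, was the 1 member not called (-0.19, adjusted p = 0.31). The same list had a median of 2.02 in chronic against acute libraries, and 19 members were called lower with than without the inhibitor (8.17% of all genes were). Hmgcs1, which makes the HMG-CoA of the mevalonate pathway (chromosome 13, 119690464 to 119708260), was at 1766, 1943 and 2502 in acute, 16876, 18414 and 20240 in chronic, and 8844, 8845 and 9411 in MEK-inhibited libraries. It rose by 2.14 ± 0.11 (limma adjusted p = 1.55e-10) with the inhibitor and by 3.17 without, although its row overlaps Gm48342 on the other strand. Mvk, mevalonate kinase, rose by 2.02.

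The fatty acid list held 10 rises and no fall among 15 genes (66.7% called, beside 25.0% of all genes), with a median of 0.67. Its members of largest change were desaturases. Fads2, a desaturase of polyunsaturated fatty acids (chromosome 19, 10062765 to 10101746), was at 264, 191 and 253 in acute, 5740, 5061 and 4993 in chronic, and 3049, 2712 and 2449 in MEK-inhibited libraries. Those groups were fully separate, and the rise of 3.51 ± 0.14 compares with 4.46 without the inhibitor. Scd1, stearoyl-CoA desaturase, rose by 2.59 against 3.47. On the deposited scale the sterol list had 21 rises and 1 fall and the fatty acid list 8 rises and 1 fall.

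RefSeq promoters (GRCm38.p6, 250 bases before to 50 after the start) were searched on both strands for motifs chosen after the values were seen. The SREBP motif TCACNCCAC was in 1 of 16 sterol list promoters matched, that of Hmgcs1, and in 1.09% of 9953 promoters of genes tested. The E2F letters TTTGGCGC, TTTCGCGC or TTTCCCGC were in 11 of 31 DNA replication promoters (35.5%), against 3.55% of all. Hmgcs1 and 2 replication genes described next, Cdc6 and E2f2, are shown with the match in capitals. They lie at chr13:119690101-119690400, chr11:98907901-98908200 and chr4:136172024-136172323, all on the plus strand. The Cdc6 match is on the reverse strand. A match is a run of letters and was not tested as a binding site.
Hmgcs1: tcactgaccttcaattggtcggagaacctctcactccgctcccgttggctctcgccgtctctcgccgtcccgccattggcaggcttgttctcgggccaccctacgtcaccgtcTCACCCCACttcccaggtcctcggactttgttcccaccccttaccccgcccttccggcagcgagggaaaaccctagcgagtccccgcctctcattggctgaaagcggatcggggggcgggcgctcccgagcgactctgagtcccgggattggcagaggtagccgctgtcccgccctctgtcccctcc
Cdc6: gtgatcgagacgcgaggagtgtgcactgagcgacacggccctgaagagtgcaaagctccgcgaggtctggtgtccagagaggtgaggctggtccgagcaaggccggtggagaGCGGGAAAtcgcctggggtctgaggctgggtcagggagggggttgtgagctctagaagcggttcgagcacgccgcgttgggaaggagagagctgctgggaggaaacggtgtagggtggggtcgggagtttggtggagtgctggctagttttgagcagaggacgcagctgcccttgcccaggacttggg
E2f2: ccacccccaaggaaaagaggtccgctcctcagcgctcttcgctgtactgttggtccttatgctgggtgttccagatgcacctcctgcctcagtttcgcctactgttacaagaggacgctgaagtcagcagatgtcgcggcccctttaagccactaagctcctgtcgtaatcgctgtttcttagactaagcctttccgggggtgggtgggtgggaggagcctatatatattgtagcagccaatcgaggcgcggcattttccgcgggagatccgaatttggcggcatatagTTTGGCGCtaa

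DNA replication genes rose almost as a whole and mostly stayed. Of 38 tested, 37 rose and none fell (32 to 38 rises when any 1 library was left out), with a median of 0.97 against 0.85 in chronic libraries, and 34 were of the genes that stayed. The share called was 97.4%, beside 25.0% of all genes. Rrm2, a subunit of ribonucleotide reductase (chromosome 12, 24708241 to 24714146), was at 2110, 2596 and 2485 in acute, 7779, 9850 and 11813 in chronic, and 11262, 9999 and 12996 in MEK-inhibited libraries. Acute libraries were apart from both groups, and the rise of 2.25 ± 0.14 compares with 2.02 without the inhibitor. Cdc6, which loads the replicative helicase, rose by 1.53 against 1.62. E2f2, an E2F factor, was at 1735, 2540 and 1965 in acute, 5162, 5033 and 4433 in chronic, and 8603, 8343 and 8282 in MEK-inhibited libraries, so its rise of 2.03 exceeded the 1.24 of chronic libraries (0.79 between them, limma adjusted p = 8.74e-05). Mcm3, a helicase subunit, was the member without a call (0.25, adjusted p = 0.0791).

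Some mitosis genes rose further with the inhibitor than without it. Of 30 tested, 25 rose against acute and none fell, with a median of 0.84 beside 0.47 in chronic libraries, and 12 were called higher with than without the inhibitor and none lower. The share called against acute was 83.3%, beside 25.0% of all genes, and 8.34% of all genes were called higher with than without the inhibitor. Mki67, the proliferation marker Ki-67, was at 4572, 4902 and 4982 in acute, 5376, 5934 and 6153 in chronic, and 9596, 8723 and 10029 in MEK-inhibited libraries. The groups did not overlap, with log2 fold changes of 0.97 with and 0.27 without the inhibitor. Aurkb, a mitotic kinase, rose by 1.50 and Ttk, a spindle checkpoint kinase, by 1.63. On the deposited scale 26 replication and 17 mitosis genes were called higher and none lower.

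Lists of cell cycle brakes and of death genes held both rises and falls. Of 13 D cyclin and CDK inhibitor genes 6 rose, 3 fell and 4 were not called, a share of 69.2% called beside 25.0% of all genes. Cdkn1a, which encodes the CDK inhibitor p21 (chromosome 17, 29093769 to 29100722), was at 3218, 4588 and 4085 in acute, 10208, 11211 and 11943 in chronic, and 15857, 14668 and 16858 in MEK-inhibited libraries, a rise of 2.01 ± 0.11 against 1.50. Cdkn2c, which encodes p18, rose by 1.83, while the D cyclin genes Ccnd2 and Ccnd3 fell by 0.57 and 0.87 on the log2 scale. Of 14 genes of the BCL2 family 4 rose, 3 fell and 7 were not called (50% called), with 7 rises without acute replicate 2, and 3 rises and 1 fall without acute replicate 1. Its median of 0.28 turned to -0.04 on the deposited scale. Bbc3, which encodes the death-promoting PUMA, was at 514, 724 and 466 in acute and at 1986, 1874 and 2114 in MEK-inhibited libraries. It rose by 1.83 against 0.76 without the inhibitor, and Pmaip1, which encodes NOXA, by 1.74 against 1.23. Bcl2, the survival gene, fell by 0.83 against 0.98.

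Some genes of resting and memory cells were still low with the inhibitor. Of 22 stem and memory genes, 12 fell, 2 rose and 8 were not called against acute, 6 of the 8 having been called back from their chronic level, with a median of -0.57 beside -0.92 in chronic libraries, and 13 were called higher with than without the inhibitor. The share called against acute was 63.6%, beside 25.0% of all genes, and 8.34% of all genes were called higher with than without the inhibitor. Slamf6, a receptor of stem-like cells, was at 2580, 2748 and 2563 in acute, 180, 199 and 70.1 in chronic, and 373, 367 and 289 in MEK-inhibited libraries (log2 -2.93 against -4.22). S1pr1, the receptor for exit from lymphoid tissue, had -2.45 against -3.76, and Ccr7, the lymph node homing receptor, -1.14 against -2.32. Tcf7, which encodes the TCF-1 factor, was at 1398, 1943 and 1561 in acute, 429, 387 and 368 in chronic, and 1332, 1057 and 1060 in MEK-inhibited libraries. It was nearer to acute than any of these, at -0.50 (limma adjusted p = 0.0277), a call that was lost on leaving out acute replicate 2, acute replicate 3, or the second or the third MEK-inhibited library (adjusted p 0.0582 to 0.122), and also without a filter or with neither trend nor robust moderation.

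Some genes fell beyond their chronic level, members of that list among them. Lef1 and Bach2, transcription factors of naive cells, had -1.18 and -1.55 with the inhibitor and -0.46 and -0.95 without. Tespa1, a gene of antigen receptor signalling (chromosome 10, 130322877 to 130364111), was at 4412, 4711 and 4833 in acute, 2413, 2597 and 2114 in chronic, and 337, 445 and 499 in MEK-inhibited libraries. The groups formed separate steps, with log2 fold changes of -3.45 and -0.97. The rises beyond chronic were led by Slc30a2 (3.04 against 1.02), a zinc transporter gene, Dennd2c (2.88 against 1.11) and Cdc42bpg (2.71 against 1.55).

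The Ifi200 genes, a cluster on chromosome 1 that encodes interferon-inducible sensors and regulators, had low signals in chronic libraries, Aim2 excepted, and 5 of them were higher with the inhibitor while still below acute. Of 13 listed, 8 passed the filter, which asks for a deposited signal of 50 in 3 libraries, and 2 of these, Ifi209 and Ifi213, passed it only through the acute libraries, where they are high. The counts therefore describe the genes that passed and support no statement on the cluster. Of the 8, 7 were called lower than acute and none higher (87.5% called, beside 25.0% of all genes), with a median of -3.07. With than without the inhibitor 5 were called higher and 1 lower, with a median of 1.59, where 8.34% and 8.17% of all genes were. Without any one acute library those 2 were not tested, and of the 6 left 4, 5 and 4 were called lower without acute replicate 1, 2 and 3. Ifi206 was at 2952, 2347 and 2750 in acute, 212, 130 and 72.4 in chronic, and 388, 357 and 320 in MEK-inhibited libraries (-2.90 against -4.35). Ifi208 was at 709, 899 and 814, then 4.54, 9.70 and 13.8, then 81.4, 69.0 and 65.2, in the same order of groups (-3.40 against -5.87). Aim2, the DNA sensor of the same cluster, was not called (-0.09, adjusted p = 0.603). Of 20 genes of the broader interferon response list, 9 fell and 2 rose (55% called, beside 25.0% of all genes), the rises being Ifit2 (1.20) and Mx1 (1.12). Mx2 of this list passed the filter only through the acute libraries and was not tested without any one of them. Of the 19 then tested, 8, 8 and 9 fell without acute replicate 1, 2 and 3.

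The core of the interferon-stimulated response element, GAAA, any 2 bases and again GAAA, searched on both strands, was in 5 of 7 Ifi200 promoters (71.4%), in 6 of 13 of the interferon list (46.2%) and in 3.15% of all 9953. The promoters of Ifi206, Ifi208 and Ifi213 (chr1:173491269-173491568 on the minus strand, chr1:173673415-173673714 on the plus strand, chr1:173599223-173599522 on the minus strand) are shown with the match in capitals and to let their letters be compared.
Ifi206: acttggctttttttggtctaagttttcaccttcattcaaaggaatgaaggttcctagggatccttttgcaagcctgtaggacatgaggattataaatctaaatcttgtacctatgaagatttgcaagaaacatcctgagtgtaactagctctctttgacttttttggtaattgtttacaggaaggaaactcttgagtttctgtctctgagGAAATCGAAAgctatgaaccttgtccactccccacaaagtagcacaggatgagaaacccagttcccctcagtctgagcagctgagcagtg
Ifi208: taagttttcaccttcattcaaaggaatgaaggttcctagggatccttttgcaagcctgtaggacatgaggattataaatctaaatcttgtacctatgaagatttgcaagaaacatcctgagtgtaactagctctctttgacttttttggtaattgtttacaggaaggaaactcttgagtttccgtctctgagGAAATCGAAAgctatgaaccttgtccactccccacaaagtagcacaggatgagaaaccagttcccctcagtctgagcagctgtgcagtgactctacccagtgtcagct
Ifi213: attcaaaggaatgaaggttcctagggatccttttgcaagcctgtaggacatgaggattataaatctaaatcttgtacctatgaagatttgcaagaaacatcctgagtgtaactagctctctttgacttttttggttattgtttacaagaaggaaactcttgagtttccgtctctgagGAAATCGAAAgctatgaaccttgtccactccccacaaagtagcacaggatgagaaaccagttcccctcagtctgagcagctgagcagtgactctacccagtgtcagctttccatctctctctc
The longest run of bases that all 3 share is 135 bases long and lies outside the match, which itself has the same letters in all 3. Their gene bodies were not compared, and how reads shared by paralogs were counted is not given in the sources used here.

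The GIMAP genes, GTPases of lymphocyte survival, were lower for the most part: of 8 tested, 6 fell and none rose (75% called, beside 25.0% of all genes), with a median of -0.86. Gimap6 was at 3079, 3163 and 3215 in acute, 1359, 1733 and 1926 in chronic, and 1344, 1205 and 1586 in MEK-inhibited libraries (-1.20 with and -0.93 without the inhibitor). Of 23 genes of the antigen receptor complex and its proximal signalling, 12 fell and 1 rose (56.5% called), with a median of -0.28. Fyn, a Src family kinase, had -1.17 and Lat, the adaptor that nucleates the signal, -0.93. Among 26 genes of ribosome biogenesis 14 fell and 1 rose (57.7% called), and with library totals 22 fell and none rose.

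**Figure D3:**
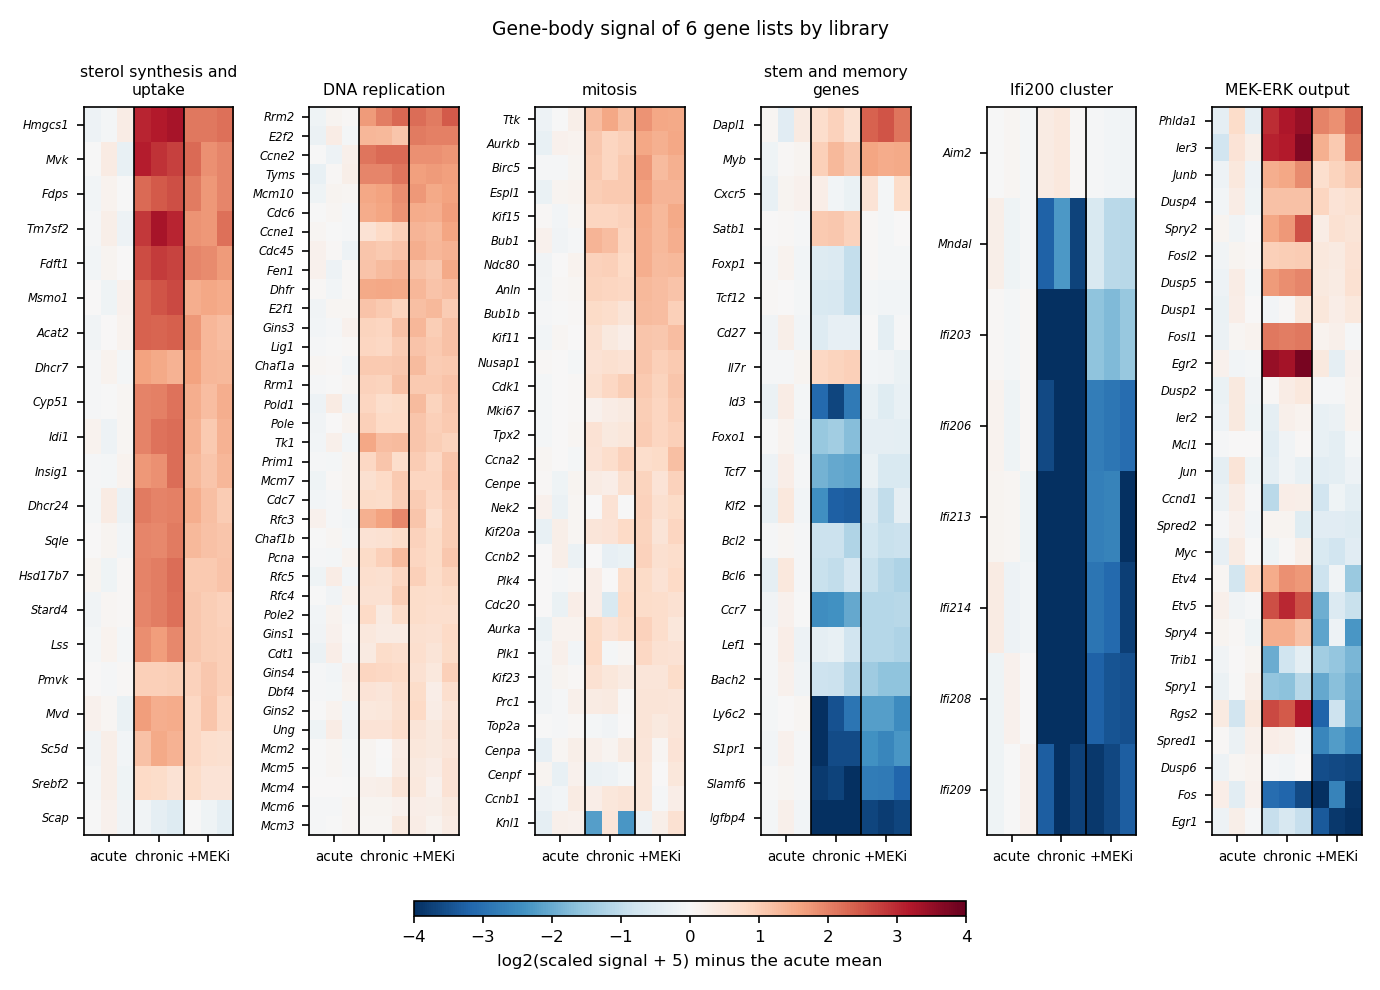
Gene-body log2(scaled signal + 5) minus the acute mean for genes of 6 lists, 1 column a library in 3 groups, with values beyond 4 or -4 drawn in the end colours. Sterol genes are paler with MEK inhibition than in chronic libraries, replication genes similar, and mitosis genes darker, with list medians of 1.23, 0.97 and 0.84 against acute.

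Spred1, a feedback gene of the ERK cascade, was among the falls that were new. Spred1, an inhibitor of RAS signalling (chromosome 2, 117121374 to 117182279), was at 1812, 1473 and 2016 in acute, 2128, 2012 and 1696 in chronic, and 280, 369 and 291 in MEK-inhibited libraries. Acute and chronic libraries overlapped, and the MEK-inhibited ones lay below both, at -2.48 ± 0.16 against acute (limma adjusted p = 1.66e-09) and -2.62 against chronic. Gem, a small GTPase gene (chromosome 4, 11704457 to 11714752), was at 3626, 3653 and 4475 in acute, 2703, 3750 and 3449 in chronic, and 477, 592 and 609 in MEK-inhibited libraries (-2.80 against acute, -0.25 for chronic). Other new falls were Fam20a (-2.43 against acute, -0.18 for chronic), the chemokine receptor gene Ccr2 (-2.92 and -0.72) and Vmn2r84 (-3.04 and -1.19). For Vmn2r84 every chronic library already lay below every acute one, without a call (limma adjusted p = 0.061). Ccr2 was at 12.9, 11.4 and 16.6 and Vmn2r84 at 19.3, 23.6 and 9.32 in MEK-inhibited libraries. Their folds thus depend on the pseudocount, at -2.21 and -2.38 with 20. Vmn2r84 lies next to Tespa1, which itself fell.

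The ERK output list did not move as 1 block. Of 27 genes tested (30 listed), 10 fell and 6 rose against acute, with a median of -0.33, while 17 were called lower with than without the inhibitor and none higher. The share called against acute was 59.3%, beside 25.0% of all genes, and 8.17% of all genes were called lower with than without the inhibitor. Egr2 and Fosl1, both raised in chronic libraries by 3.53 and 2.09, were back near acute at 0.07 and 0.10 (limma adjusted p = 0.855 and 0.665). Phlda1, at 84.1, 186 and 84.3 in acute and 445, 400 and 565 in MEK-inhibited libraries, stayed raised by 2.03, and Ier3, an immediate early gene, by 1.49. Etv5, an ETS factor, was at 117, 90.8 and 99.1 in acute, 635, 855 and 616 in chronic, and 22.6, 68.2 and 52.8 in MEK-inhibited libraries (-1.13 against acute, adjusted p = 0.0259). That call was lost on leaving out the first or the third acute library or the first MEK-inhibited one, when adjusted p was 0.0682 to 0.14. It was also lost without a filter (adjusted p = 0.0673) and with neither trend nor robust moderation (0.0505). With only acute and MEK-inhibited libraries in the limma fit its adjusted p was 0.112.

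Other genes were carried to the far side of acute. Rgs1, a regulator of G protein signalling (chromosome 1, 144242296 to 144249242), was at 7242, 5568 and 7846 in acute, 7552, 10661 and 10632 in chronic, and 1286, 1279 and 1293 in MEK-inhibited libraries. It had -2.40 against acute with the inhibitor and 0.48 without. Rgs2, of the same family, had -2.03 and 2.77, and Cdh17, a cadherin gene near Gem, -2.32 and 2.23. Cxcr6, a tissue homing receptor, was at 366, 315 and 303 in acute, 845, 1200 and 1028 in chronic, and 118, 137 and 122 in MEK-inhibited libraries (-1.35 and 1.62). Cd28, the costimulatory receptor, had -0.74 and 0.63, and Lcp2, the adaptor SLP-76, -1.03 and 0.47. Rasa2, which inactivates RAS, had -0.61 and 0.26. Signals of Rgs2 and Cdh17 were uneven between libraries: Rgs2 had -1.43 and -2.64 without MEK-inhibited replicate 1 and 2, and Cdh17 -1.46 without MEK-inhibited replicate 3.

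Kit had the largest new rise under the naming rule. Kit, the receptor of stem cell factor (chromosome 5, 75574916 to 75656722), was at 413, 483 and 468 in acute, 35.2, 88.5 and 51.7 in chronic, and 2747, 2424 and 2253 in MEK-inhibited libraries. No groups overlapped: chronic libraries were at -2.94 against acute, and with the inhibitor it was 2.43 ± 0.25 above acute (limma adjusted p = 7.71e-07) and 5.37 above chronic. Prr5, which encodes an mTORC2 component (chromosome 15, 84669620 to 84703673), was at 1079, 1261 and 1087 in acute, 708, 549 and 555 in chronic, and 3854, 3773 and 3742 in MEK-inhibited libraries (1.73 and -0.92). Prrt1 (1.59 and -1.25) lost its call on leaving out the third acute or the first MEK-inhibited library, at adjusted p = 0.058 and 0.0699. Cxcr4, the receptor for CXCL12, was at 0.81 against -1.01 without the inhibitor, and at 0.50 on the deposited scale (adjusted p = 0.0771).

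Among new rises with no call in chronic libraries, Tbx21 and Dapl1 have known T cell roles. Tbx21, which encodes the effector factor T-bet (chromosome 11, 97098071 to 97115331), was at 5074, 6119 and 5622 in acute, 4788, 4794 and 4407 in chronic, and 13516, 11057 and 13001 in MEK-inhibited libraries. It rose by 1.16 ± 0.10 (limma adjusted p = 7.48e-08) against -0.26 for chronic. Dapl1, a gene of naive and memory T cells, was at 81.6, 55.2 and 100 in acute, 127, 150 and 119 in chronic, and 414, 465 and 354 in MEK-inhibited libraries (2.34 and 0.74). Arl4d (2.17 with and 0.78 without the inhibitor), the kinase gene Fes (1.77 and 0.50), Samd3 (1.62 and 0.51), Grhl3 (1.61 and 0.38) and Crip1 (1.49 and 0.40) complete the 6 largest. For Arl4d and Fes every chronic library lay above every acute one. Arl4d reached the filter's signal in 0 acute, 1 chronic and 3 MEK-inhibited libraries, so a rise was favoured by its entry. Fas, the death receptor, rose by 1.04 against -0.37, and Il10ra, the interleukin-10 receptor, by 0.80 against -0.24. Of 22 exhaustion and effector factors 12 rose and 3 fell against acute, a share of 68.2% called beside 25.0% of all genes. Of the 12 rises, 10 were also called higher in chronic libraries and 2 were new. Nr4a3 rose by 1.49 (0.50 without the inhibitor) and Ikzf2 by 1.60 (0.32), while Tox had -1.07 and Tox2 -1.82. On the deposited scale 9 of this list were called higher and 6 lower.

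**Figure D4:**
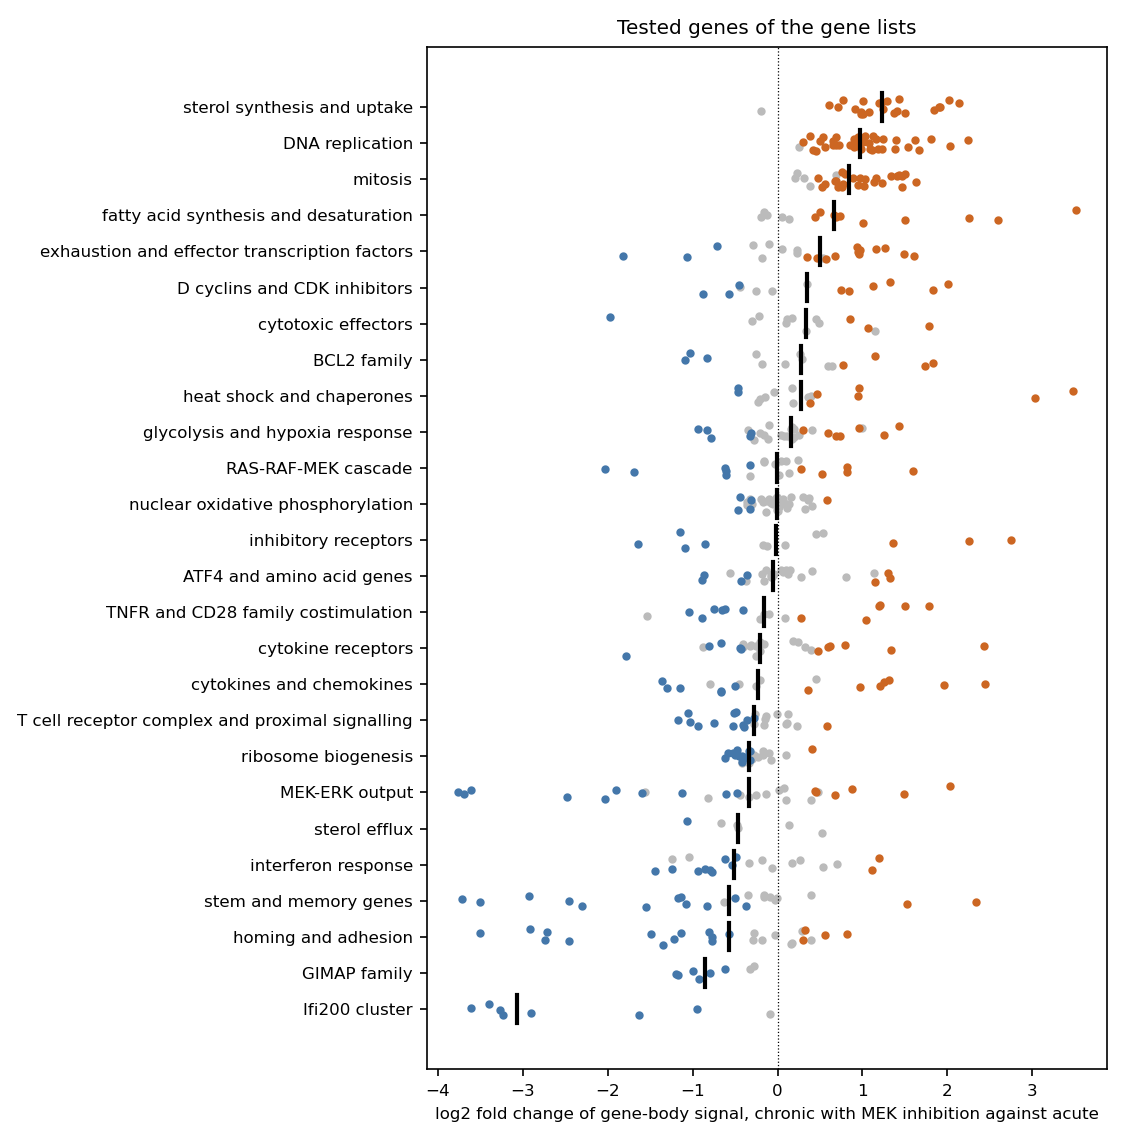
Log2 fold change of gene-body signal, chronic with MEK inhibition against acute, for each tested gene of 26 lists (points: orange called higher, blue called lower, grey not called; bar: list median). Medians run from -3.07 (Ifi200 cluster) to 1.23 (sterol synthesis and uptake), beside -0.02 over all genes. The Ifi200 median includes Ifi209 and Ifi213, which passed the signal filter only through the acute libraries, where they are high.

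In the other lists the share of genes called ran from below to above the 25.0% of all genes. Of 25 homing and adhesion genes 13 fell and 4 rose (68.0% called, 2 rises on leaving out the first or the third MEK-inhibited library), with Cdh1, which encodes E-cadherin, at -2.71. Of 26 cytokine receptor genes 6 rose and 5 fell (42.3%), with Il6ra, the interleukin-6 receptor, at -1.78 and new. Costimulatory receptors had 6 rises and 6 falls among 17 (70.6%), and heat shock genes 6 and 2 among 16 (50%). The RAS-RAF-MEK cascade had 5 rises and 6 falls among 20 (55.0%), with Rasa3, a RAS inactivator, at -2.03, and 3 rises on leaving out acute replicate 1, acute replicate 3, or the first or the third MEK-inhibited library. Glycolysis and hypoxia genes had 7 rises and 5 falls among 29 (41.4%; 3, 2 and 3 falls without acute replicate 1, acute replicate 3 and MEK-inhibited replicate 2), and ATF4 and amino acid genes 3 and 4 among 26, a share of 26.9% near that of all genes (6 rises without acute replicate 2, 5 without chronic replicate 1). Nuclear genes of oxidative phosphorylation had 1 rise and 4 falls among 36, a share of 13.9%, below that of all genes. Their falls numbered 1 without acute replicate 1 and 2 without acute replicate 3 or MEK-inhibited replicate 2. Their rises numbered 2 without acute replicate 2, chronic replicate 1 or MEK-inhibited replicate 2, and 0 without the first or the third MEK-inhibited library. Of 6 sterol efflux genes 1 fell (16.7%), with 2 falls without chronic replicate 2 or chronic replicate 3, and 1 rise without acute replicate 2.

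Near the transcription start fewer genes could be tested. Of 7674 genes in the pause region, 458 (5.97%) were called, 264 higher (3.44%) and 194 lower (2.53%). Leaving out 1 library gave 229 to 509 calls, with 297 without acute replicate 1 and 261, 229 and 243 without MEK-inhibited replicate 1, 2 and 3. Dusp6 was at 249.5, 361 and 357 in acute, 220.3, 281 and 245 in chronic, and 15.5, 34.0 and 14.4 in MEK-inhibited libraries near the start, so acute and chronic libraries overlapped, the MEK-inhibited ones lay below both, and the change against acute was -3.70 ± 0.33 (limma adjusted p = 2.03e-08). Fads2 (3.11), Rhob (2.97), Scd1 (2.97) and Lag3 (2.69) rose most, and Ifi206 (-3.27), Ifi208 (-3.24) and Ifi213 (-3.08) fell beside Dusp6. These 3 Ifi200 genes passed the signal filter of the pause region only through the acute libraries, where they are high, so their fall there is a description and supports nothing. Fads2 and Scd1 reached that filter's signal in 0 acute, 3 chronic and 3 MEK-inhibited libraries, so a rise was favoured by their entry. For these genes, rises and falls alike, the gene body had moved in the same direction.

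No gene was called for a change of pausing, taken as log2 pause-region signal less log2 gene-body signal, among 7409 genes (0.00%). At an unadjusted p under 0.05 there were 567, the smallest limma adjusted p was 0.229, and no other tool was run. The median pausing index of a library was -3.60 ± 0.0673 (SD, n = 3) in MEK-inhibited and -4.06 ± 0.335 in acute libraries, a difference of 0.46 with a two-sided exact permutation p of 0.2.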

How the data were processed

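Nascent RNA of mouse CD8+ T cells was measured in 9 libraries, 3 per group. Per the submitters' processing notes, the tools were FastQC 0.12.0, Trim Galore 0.6.10, STAR 2.7.0a, SAMtools 1.19.2, deepTools 0.1.9 and R 4.1.2, with build mm10, and their settings are not given in the sources used here. The authors deposited a signal per transcript in 2 tables, read here as gene body and pause region from their abbreviated names. Their values are multiples of a step that differs between libraries, so this signal was not treated as reads, and the coordinates of both regions and the use of strand are not given in the sources used here.

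Rows were matched to GENCODE M21 (117346 of 118482 with version, 383 without, 753 not matched). For each of 37022 genes on chromosomes 1 to 19, 1 row was kept, that of highest average signal in the gene body, and 4 rows of the ribosomal RNA-like locus were dropped. Of the kept rows, 48.6% overlap another gene, and of those of the 15938 genes tested 63.5% do. Overlap is named above only for Ifng and Hmgcs1, but rows of other list genes overlap too. They include those of Zbtb7b and Lck, 13 of 22 stem and memory genes, and 11 of 22 exhaustion and effector factors. Testing required a deposited signal of 50 or more in 3 or more libraries, which 96 genes passed only through the acute libraries (among list genes Fos, Gzmk, Mx2, Ifi209 and Ifi213). Another 34 passed only through the chronic libraries (among list genes Ccl3, Ccl4 and Penk) and 6 only through the MEK-inhibited ones. Libraries were scaled by a trimmed mean of log ratios (30% of ratios and 5% of levels trimmed from each end). One limma fit over all 9 libraries (limma 3.58.1, R 4.3.3, intensity trend and robust moderation) used log2(scaled signal + 5) and gave every adjusted p, by Benjamini and Hochberg at 0.05. Python 3.11.15, pandas 2.3.3 and matplotlib 3.10.9 joined and drew the data.

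The members, the 26 gene lists and the 11 marker lists were chosen with earlier results of these data known. Apart from list genes, named genes were the largest changes in each class among called genes whose higher group averaged 100 or more, no overlapping gene, and no overlap between acute and MEK-inhibited libraries, which held for 20.0% of genes upward and 20.5% downward. Some genes that met this are not reported here. Same-numbered libraries are not said to be paired. Between acute and MEK-inhibited libraries, deviations of same-numbered ones from group means had r = -0.358, -0.534 and -0.0109 across genes. Differently numbered ones of these groups had r from -0.369 (acute replicate 3, MEK-inhibited replicate 1) to 0.514 (acute replicate 2, MEK-inhibited replicate 1). Some deviations thus went together across the groups, though not by number, and the cause was not tested. The median pausing index of a library used a pseudocount of 0.5. Alternatives covered scaling, pseudocount, filter, moderation, overlapping genes, row choice, a replicate block and leaving out each library.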

Additional observations from a re-analysis of the deposited data

How the results depend on the processing

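No named gene called against acute turned its direction under any alternative run, and 94 of 104 called genes named kept their call under every alternative in which they were tested. Of the 104, 64 were tested under all 21 alternatives and the others under fewer, down to 16, and Fos, Tdrp, Gpr83, Gzmk, Ifi209 and Ifi213 were not tested without any one acute library. The exceptions were Etv5, Il10, Tcf7, Prrt1, Cxcr4, Cd5, Cd79a, Cd8a, Lck and Gzmk, with highest adjusted p of 0.14, 0.123, 0.22, 0.0699, 0.0771, 0.295, 0.146, 0.115, 0.155 and 0.0849. Gene-body calls (3991) were 2235 without a filter, where scaling also rests on all genes, 1661 with only genes that overlap no other gene, since fewer were tested, and 1323 with a log2 change beyond 1. They ranged from 3092 to 4393 when 1 library was left out. Under the same 3 settings, genes that stayed different (2687) numbered 1536, 1110 and 826, and new genes (567) numbered 251, 256 and 126. On the deposited scale 4476 genes stayed different. Leaving out 1 library gave 2201 to 2809 and 400 to 626, respectively. Pause-region calls (458) were 231 with neither trend nor robust moderation, 215 with only genes that overlap no other gene, and 229 to 509 when 1 library was left out. A pseudocount of 20 gave 1 pausing change. With the replicate block, gene-body calls were 4037, pause-region calls 514, genes that stayed 2739, new genes 586 and pausing changes 0, and the block is not a design of the study, since the numbers do not pair the libraries. Other causes of these moves were not tested. With totals, 1568 genes were higher and 3151 lower than acute, on the deposited scale 1018 and 4541, and with a signal of at least 200 there were 2031 and 2177. List medians turned sign on the deposited scale for glycolysis (0.16 to -0.16), heat shock (0.27 to -0.04) and the BCL2 family (0.28 to -0.04). Of the 2687 genes that stayed, 1796 remained on the deposited scale (66.8%), and of the 567 new genes 234 (41.3%). Unknown read depth leaves weak signals, such as those of the Ifi200 genes with the inhibitor, without a counting error.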
